A study of Homo sapiens with 13 samples.

Results

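The genes described here encode 10 ligands and receptors of the fibroblast growth factor (FGF) and platelet-derived growth factor (PDGF) families, measured by mRNA sequencing in hFOB 1.19, a line of bone-forming cells that was derived from human fetal osteoblasts and immortalized. They were the rows of the count table whose Ensembl identifier belonged to FGF1, FGF2, FGF5, FGF7, FGF18, PDGFA, PDGFC, FGFR1, PDGFRA or PDGFRB, so 10 of 43836 genes, and all 10 were among the 17092 genes with enough reads to be tested. The study asked how serum-starved osteoblasts respond to serum or to plant polyphenols. Positive controls (PC, 2 libraries) were grown with 10% fetal bovine serum (FBS) and negative controls (NC, 2 libraries) without it, both with the DMSO vehicle. RES (resveratrol, 3 libraries), POG (peonidin-3-O-glucoside, an anthocyanin, 3 libraries) and DEG (2 libraries, an abbreviation that the labels do not spell out) received a compound at 1 µg/mL, added to serum-starved cells in serum-free medium per the study's methods for RES and POG. All libraries came from a single cell line, and the labels do not say whether libraries of a group came from separate cultures, so p-values measure the spread between these libraries, which may be technical.

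FGFs and PDGFs are secreted growth factors that drive the division, migration and survival of mesenchymal cells. FGFs bind receptor tyrosine kinases of the FGFR family together with heparan sulfate, and PDGF dimers bind the receptor kinases PDGFRA and PDGFRB. Both kinds of receptor feed the RAS and MAPK cascade and PI3-kinase. In bone, FGF2 and FGF18 are known regulators of osteoblast growth and maturation, and PDGF is a recruiter of osteoblast precursors and a constituent of serum released from platelets.

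Libraries held 38464619 to 51416358 counted reads, and libraries of a group were close to each other, with a common biological coefficient of variation of 3.21%. The osteoblast identity was checked with 10 markers, of which 8 averaged at least 1 CPM (the read count over the library total on the usual per-million scale, with totals adjusted by the TMM method) over the negative controls; SP7 (0.0628 CPM) and IBSP (at 0 in NC) did not. Of the adipocyte markers, LEP had no read in any library, and the marker with the highest level within NC was PLIN1, at a mean of 0.647 CPM. Of the leukocyte and macrophage markers, CD3E had no read, and the marker with the highest level within NC was CSF1R, at a mean of 2.55 CPM.

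The promoters of 4 members picked by hand, FGF1, FGF2, PDGFA and PDGFRB, are shown first, since the values below concern how much RNA each gene gave. Promoter windows were taken from RefSeq (GRCh38.p14) and matched 8 of the 10 genes (not FGFR1 and PDGFC), with 16 annotated starts. In FGF1 and PDGFA, which have several starts, the window of the first listed start is printed, and in all 4 only bases that lie before the GENCODE gene are given, 5′ to 3′ on the gene's own strand, with matches to the searched motifs in capitals.
FGF1 (chr5:142698071-142698320, minus strand): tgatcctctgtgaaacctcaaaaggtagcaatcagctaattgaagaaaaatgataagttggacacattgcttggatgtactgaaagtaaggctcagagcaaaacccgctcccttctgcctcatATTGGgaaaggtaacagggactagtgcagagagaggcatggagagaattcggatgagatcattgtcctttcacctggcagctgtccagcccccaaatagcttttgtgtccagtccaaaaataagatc
FGF2 (chr4:122826581-122826681, plus strand): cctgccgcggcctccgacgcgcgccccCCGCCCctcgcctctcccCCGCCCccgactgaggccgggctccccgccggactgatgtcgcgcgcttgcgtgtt
PDGFA (chr7:520297-520476, minus strand): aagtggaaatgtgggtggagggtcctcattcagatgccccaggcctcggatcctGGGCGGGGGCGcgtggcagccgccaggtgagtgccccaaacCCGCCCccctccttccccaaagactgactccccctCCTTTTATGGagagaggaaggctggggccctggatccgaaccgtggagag
PDGFRB (chr5:150155873-150156095, minus strand): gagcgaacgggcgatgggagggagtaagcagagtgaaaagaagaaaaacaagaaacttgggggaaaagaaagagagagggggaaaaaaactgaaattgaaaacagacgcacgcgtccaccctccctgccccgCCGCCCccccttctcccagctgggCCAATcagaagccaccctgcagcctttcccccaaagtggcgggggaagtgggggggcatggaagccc
Both strands were searched for the letters TATAAA of the basal promoter element, CCAAT of the box of that name, GGGCGG of the GC box, TGANTCA of the AP-1 site, CACGTG of the E-box, GCGGGGGCG of the EGR1 site and CCGGAA of the ETS site, and for the CArG box of serum response factor by name, where the GC box and the EGR1 motif can overlap. The PDGFA stretch holds a joined GC box and EGR1 match, a further GC box and a CArG box. The FGF2 stretch holds 2 GC boxes, the PDGFRB stretch a GC box and a CCAAT box, and the FGF1 stretch a CCAAT box. Over windows of 250 bases before the start, a GC box occurred in 11 of the 16 member windows and in 42.6% of all 35116 windows, a CCAAT box in 6 of 16 and in 32.0%, an EGR1 match in 2 of 16 (both PDGFA) and in 4.72%, and a CArG box in 1 of 16 and in 1.16%. These matches describe the letters and not the binding of a factor.

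Per length of merged exons, FGF2 had the highest value of the 10 genes in the negative controls, at 45.5 ± 1.39 RPKM (the CPM divided by the exon length in kilobases, with SD, n = 2). FGF2, the prototype heparan-binding FGF, was followed by PDGFRB at 37.2 ± 0.0359 and FGFR1 at 17 ± 0.0265 RPKM. FGF5 (7.04 RPKM), PDGFC (7.04), PDGFA (4.97) and FGF1 (3.62) lay above the median of the tested genes (3.59 RPKM), and PDGFRA (1.29), FGF7 (1.13) and FGF18 (0.338) below it. The cells thus held PDGFRB RNA far above PDGFRA RNA, and FGF2 above every other FGF measured among the 10. Exon lengths came from GENCODE v44 and not from the annotation used for counting. They merge the exons of all transcripts of a gene, 17201 bases for FGFR1 beside 6801 for FGF2 and 7135 for PDGFRB. Which transcripts the cells made was not measured, so the rank of FGFR1 rests on this length. By CPM in NC, FGF2 was at 309.7, FGFR1 at 292.8 and PDGFRB at 265.4.

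**Figure D1:**
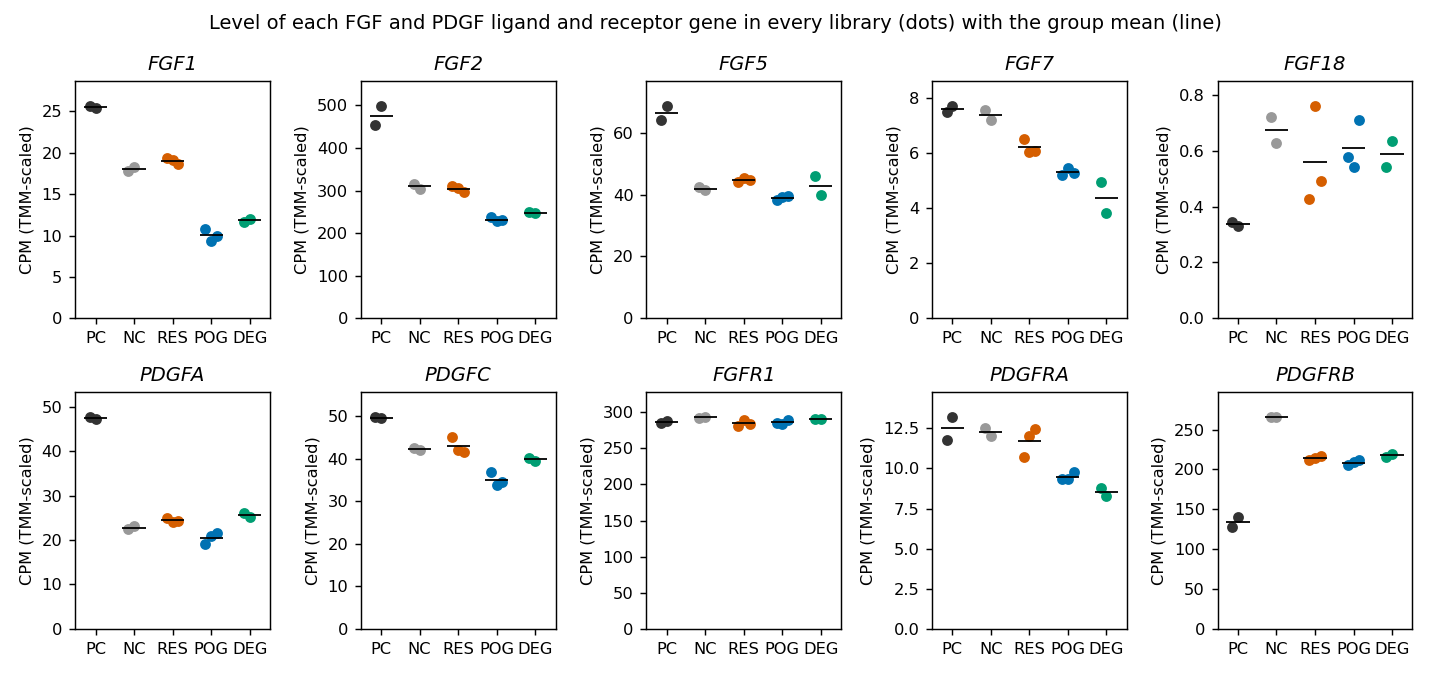
TMM-scaled CPM of each of the 10 genes (vertical axis, starting at 0) in every library (dots) of the PC, NC, RES, POG and DEG groups, with the group mean as a line. FGF1, FGF2, FGF5 and PDGFA are highest in the 2 PC libraries, PDGFRB is lowest there, and FGFR1 stays between 281 and 293 CPM in all 12 libraries.

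Serum was compared with its absence first. Of the 10 genes, 5 rose and 2 fell in PC against NC (edgeR exact test, FDR under 0.05), where 42.4% of all tested genes were called (21.4% higher and 20.9% lower). The ligands PDGFA, FGF5, FGF2, FGF1 and PDGFC rose and the receptor PDGFRB fell by about the same factor as PDGFA rose. The median log2 fold change of the 10 genes was 0.14, beside -0.0059 over all tested genes. The 10 genes were chosen with earlier results of these data known, so shares and medians here and below only describe them. In bulk RNA, fewer cells with a transcript and less of it per cell cannot be told apart.

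PDGFA encodes the A chain of PDGF. Its level was 47.7 and 47.2 CPM in PC against 22.4 and 23.2 CPM in NC, a log2 fold change of 1.06 ± 0.06 (SE; FDR = 8.25e-65 in the edgeR exact test). Both PC libraries lay above every other library, and the lowest of them was well clear of the highest DEG library at 26.1 CPM. PDGFC, which encodes a latent ligand that proteases must activate, rose less, from 42.4 and 42.0 to 49.7 and 49.6 CPM (log2 fold change 0.23 ± 0.05, edgeR FDR = 9.69e-05). The ratio of PDGFA to PDGFC CPM was thus 0.956 ± 0.0038 in PC and 0.54 ± 0.0174 in NC (SD, n = 2 each).

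FGF2 stood at 454 and 498 CPM in PC and at 316 and 303 CPM in NC (log2 fold change 0.62 ± 0.04, edgeR FDR = 2.76e-47). FGF5, a ligand known from the hair cycle, was at 64.1 and 68.5 CPM against 42.4 and 41.5 (0.66 ± 0.05, edgeR FDR = 4.48e-30). FGF1, the acidic FGF that lacks a signal peptide as FGF2 does, was at 25.6 and 25.4 CPM against 17.8 and 18.3 (0.50 ± 0.07, edgeR FDR = 2.34e-11). For these 3 ligands the PC libraries lay above all 10 other libraries.

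The fall was that of PDGFRB, the receptor for the B and D chains of PDGF and a marker of mesenchymal and perivascular cells. It was at 128 and 141 CPM in PC against 265 and 266 CPM in NC, a log2 fold change of -0.98 ± 0.04 (edgeR FDR = 3.73e-121). PDGFRA, the partner receptor that also takes PDGF-A and PDGF-C, was at 11.8 and 13.2 CPM in PC and 12.55 and 12.0 in NC and was not called (log2 fold change 0.02, 95% interval -0.16 to 0.21, edgeR FDR = 0.896). The ratio of PDGFRB to PDGFRA CPM was 10.8 ± 0.128 in PC and 21.6 ± 0.652 in NC (SD, n = 2 each). PDGFRB is also used as a pericyte marker, and of 5 smooth muscle and pericyte markers 3 averaged at least 1 CPM. Their summed level was 70.4 to 73.6 CPM in PC and 58.1 to 59.6 CPM in NC. The rise was mainly that of CNN1, from a mean of 28.2 to 42.7 CPM, while ACTA2 averaged 27.8 CPM in NC and 26.0 CPM in PC. Of the 5 markers 1 was called, which is 20%, beside 42.4% of all tested genes. The part of such cells in the PDGFRB result was not tested. Of the other markers, RGS5 averaged 1.94 CPM in NC and 2.13 in PC, and DES 0.523 and 0.671. MYH11 stayed at or below 0.569 CPM in every library.

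FGF18 was also called lower with serum, with 17 and 14 reads in PC against 28 and 25 in NC (0.344 and 0.332 CPM against 0.723 and 0.628; log2 fold change -0.99 ± 0.43, edgeR FDR = 0.0338). This call rests on few reads and was lost with edgeR's quasi-likelihood test (FDR = 0.0605), with DESeq2 (0.0819), without the filter on low counts (0.079) and when any PC or NC library was left out (0.0715 to 0.179). FGF7, the keratinocyte growth factor secreted by mesenchymal cells, was at 7.49 and 7.68 CPM in PC and 7.57 and 7.19 CPM in NC and was not called (edgeR FDR = 0.838). FGFR1, the FGF receptor transcript with the most reads in these libraries, was at 285 and 287 CPM against 293 and 293 (log2 fold change -0.03, 95% interval -0.10 to 0.03, edgeR FDR = 0.472).

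**Figure D2:**
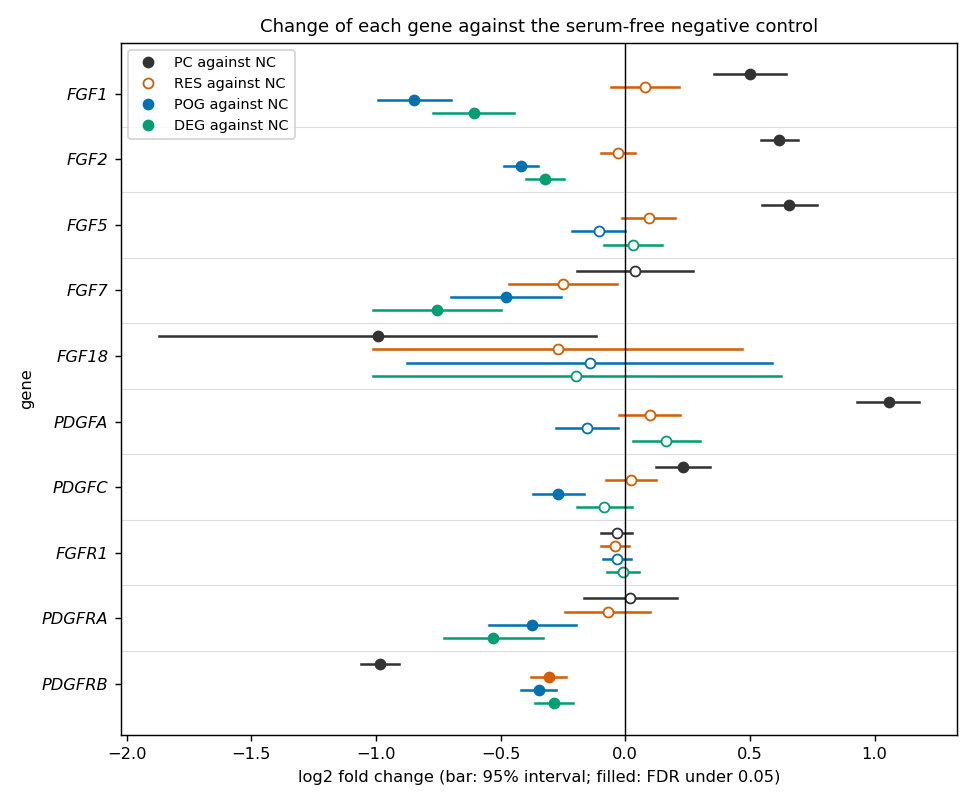
Log2 fold change against NC (horizontal axis) of each gene in PC, RES, POG and DEG, with its 95% interval as a bar and a filled marker where the edgeR FDR was under 0.05. PDGFA at 1.06 and PDGFRB at -0.98 lie farthest from 0 among precisely measured genes in PC, and the filled POG and DEG markers all lie left of 0.

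Each compound was then compared with NC. These comparisons use the same 2 NC libraries, so their values are not independent of each other. With RES, PDGFRB fell and no member rose (edgeR FDR under 0.05; 1 of 10 called, beside 11.2% of all tested genes, 4.94% higher and 6.21% lower). At an unadjusted p under 0.05, 2 members were lower and 0 were higher, and the quasi-likelihood test and DESeq2 called 0 higher as well. PDGFRB was at 212, 215 and 217 CPM in RES, below both NC libraries (log2 fold change -0.31 ± 0.03, edgeR FDR = 2.97e-14). FGF2 (310, 305 and 296 CPM), FGF1 (19.4, 19.1 and 18.6 CPM) and PDGFC (45.1, 42.0 and 41.6 CPM) differed from NC by less than the test could call, with log2 fold changes of -0.03, 0.08 and 0.02. FGF7 was at 6.50, 6.01 and 6.08 CPM, below both NC libraries, but was not called (log2 fold change -0.25 ± 0.11, edgeR FDR = 0.111). The median over the 10 genes was -0.03, beside 0.0011 over all genes.

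With POG, 6 of the 10 genes fell (FGF1, FGF2, FGF7, PDGFC, PDGFRA and PDGFRB), beside 14.5% of all tested genes, 5.93% higher and 8.57% lower. The count of members higher was 0 with the exact test, at an unadjusted p under 0.05, with the quasi-likelihood test and with DESeq2. The median log2 fold change of the 10 genes was -0.31, beside 0.0023 over all genes. FGF1 fell the most, to 10.7, 9.39 and 9.96 CPM (log2 fold change -0.85 ± 0.07, edgeR FDR = 8.59e-29). FGF2 was at 237, 228 and 231 CPM (log2 fold change -0.42 ± 0.03, edgeR FDR = 4.96e-25). All POG libraries of both ligands lay below all NC, RES and PC libraries.

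FGF7 was at 5.19, 5.44 and 5.25 CPM in POG (log2 fold change -0.48 ± 0.11, edgeR FDR = 0.000184). PDGFC was at 36.9, 33.8 and 34.5 CPM (-0.27 ± 0.05, edgeR FDR = 6.76e-06), where serum had raised it. Among the receptors, PDGFRA was at 9.34, 9.32 and 9.81 CPM (-0.37 ± 0.09, edgeR FDR = 0.000365) and PDGFRB at 205, 209 and 212 CPM (-0.35 ± 0.03, edgeR FDR = 1.26e-18). Both receptors fell by similar factors, so their ratio was 22 ± 0.424 (SD, n = 3), close to that of NC. FGF5 (38.2, 39.1 and 39.6 CPM, edgeR FDR = 0.185) and PDGFA (19.0, 21.0 and 21.6 CPM, edgeR FDR = 0.0766) lay below both NC libraries and were not called; without POG replicate 3, PDGFA was called (edgeR FDR = 0.0444).

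With DEG, 5 of the 10 genes fell (FGF1, FGF2, FGF7, PDGFRA and PDGFRB), beside 9.63% of all tested genes, 3.52% higher and 6.11% lower. The count of members higher was 0 with the exact test, the quasi-likelihood test and DESeq2, and 1 (PDGFA) at an unadjusted p under 0.05. The median log2 fold change was -0.24, beside 0.00083 over all genes. FGF7 fell to 4.93 and 3.82 CPM (log2 fold change -0.75 ± 0.13, edgeR FDR = 9.52e-08), with 191 and 150 reads. Without DEG replicate 2 its log2 fold change was -0.58, beside -0.63 for FGF1. FGF1 was at 11.6 and 12.0 CPM (-0.61 ± 0.08, edgeR FDR = 4.01e-12) and FGF2 at 249 and 247 CPM (-0.32 ± 0.04, edgeR FDR = 8.63e-12). These DEG libraries lay below every NC library for the 3 ligands. FGFR1, which was not called, also lay below both NC libraries in PC, RES, POG and DEG. Such separation of few libraries is thus weak evidence alone, here and in the comparisons above.

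PDGFRA was at 8.75 and 8.29 CPM in DEG, the lowest group for this receptor (log2 fold change -0.53 ± 0.10, edgeR FDR = 4.89e-06). PDGFRB was at 216 and 219.5 CPM (-0.29 ± 0.04, edgeR FDR = 3.11e-10), and the ratio of PDGFRB to PDGFRA was 25.5 ± 1.3 (SD, n = 2). PDGFA was at 26.1 and 25.1 CPM, above both NC libraries without being called (0.16 ± 0.07, edgeR FDR = 0.107). FGF5 (45.9 and 39.9 CPM) and PDGFC (40.2 and 39.5 CPM) were not called either.

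The compounds were set against each other at the same dose of 1 µg/mL. POG and DEG each differed from RES in several members, and they differed from each other in few. In POG against RES, 6 of the 10 genes were lower, beside 27.9% of all tested genes called, 13.7% higher and 14.1% lower, and 0 were higher with the exact test, at an unadjusted p under 0.05, and with the other 2 tools. FGF1 differed the most between these compounds (log2 difference -0.92 ± 0.06, edgeR FDR = 9.59e-46), followed by FGF2 (-0.39 ± 0.03, edgeR FDR = 3.22e-27) and PDGFRA (-0.30 ± 0.08, edgeR FDR = 0.000647). PDGFC (-0.29), PDGFA (-0.25) and FGF5 (-0.20) were lower in POG as well, with edgeR FDR values of 4.24e-09, 3.3e-05 and 0.000176. FGF7 was not called between them (-0.23, 95% interval -0.43 to -0.03, edgeR FDR = 0.0628).

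In DEG against RES, FGF1 (-0.69 ± 0.07), FGF7 (-0.50 ± 0.12), PDGFRA (-0.46 ± 0.09) and FGF2 (-0.29 ± 0.03) were lower, 4 of 10 beside 21.2% of all tested genes called, 10.3% higher and 10.8% lower. Their edgeR FDR values were 1.46e-19, 0.000188, 8.14e-06 and 5.49e-12. The count of members higher was 0 with the exact test, at an unadjusted p under 0.05, and with the other 2 tools. The FGF7 difference was not called without DEG replicate 2 (log2 difference -0.33, edgeR FDR = 0.12).

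DEG and POG differed in 2 members, both higher in DEG, beside 1.05% of all tested genes, 0.55% higher and 0.497% lower. PDGFA was at 26.1 and 25.1 CPM in DEG against 19.0, 21.0 and 21.6 in POG (log2 difference 0.32 ± 0.06, edgeR FDR = 0.000133), and this call was lost without DEG replicate 1 (0.29, edgeR FDR = 0.0675). PDGFC was higher in DEG by 0.19 ± 0.05 (edgeR FDR = 0.0399), a call that was lost with the quasi-likelihood test (FDR = 0.0922), DESeq2 (0.0626), plain library totals (0.0523), no filter on low counts (0.119), and without POG replicate 2 (0.254), POG replicate 3 (0.184), DEG replicate 1 (0.414) or DEG replicate 2 (0.263). FGF1 was higher in both DEG libraries than in the 3 POG libraries but was not called (log2 difference 0.24, 95% interval 0.08 to 0.39, edgeR FDR = 0.121). FGF2 was likewise not called (0.10, 95% interval 0.03 to 0.17, edgeR FDR = 0.254), except with dispersions from these 2 groups alone (FDR = 0.000717).

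Each compound lowered PDGFRB, and no pair of compounds was called for it. The log2 differences were -0.04 for POG against RES (95% interval -0.10 to 0.02), 0.02 for DEG against RES (-0.05 to 0.09) and 0.06 for DEG against POG (-0.0093 to 0.13), with edgeR FDR values of 0.413, 0.784 and 0.603. In PC it lay below each of the 3 compound groups, by 0.68 against RES, 0.64 against POG and 0.70 against DEG on the log2 scale. The order of its group means was NC, DEG, RES, POG and PC, and only the steps from NC to DEG and from POG to PC were called.

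**Figure D3:**
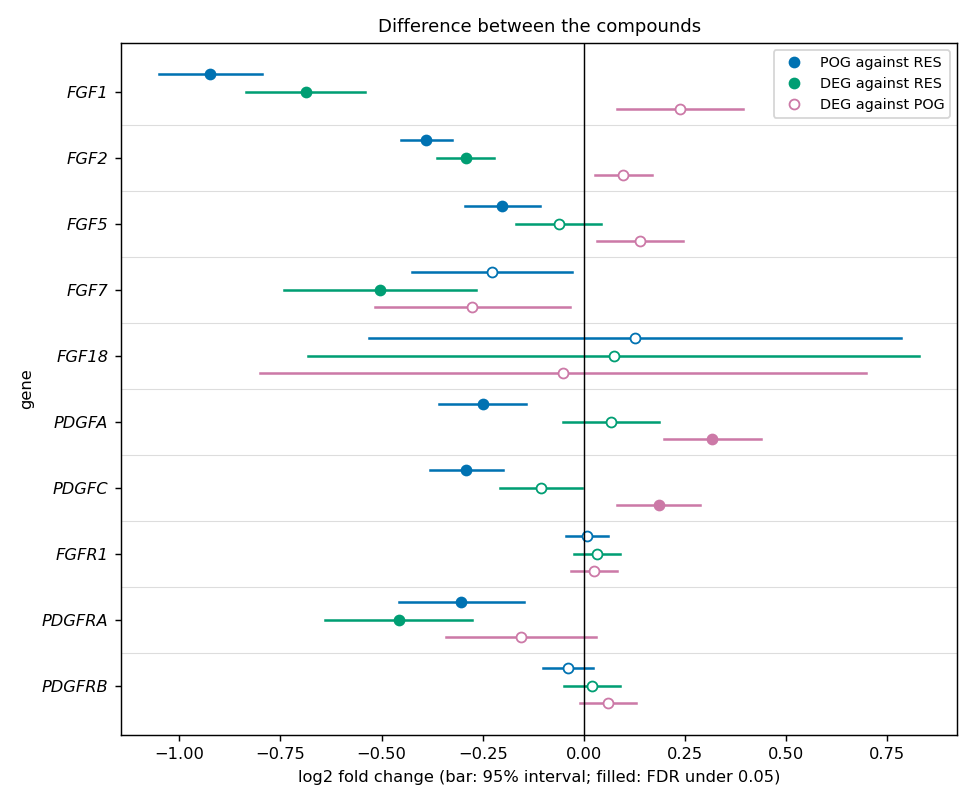
Log2 difference between compounds (horizontal axis) for each gene, POG against RES, DEG against RES and DEG against POG, with 95% intervals and filled markers where the edgeR FDR was under 0.05. FGF1, FGF2 and PDGFRA lie left of 0 in both comparisons with RES, while the intervals of PDGFRB and FGFR1 span 0 in all 3.

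Serum was then set against each compound. PC exceeded RES in 6 members and was lower in 1 (beside 45.7% of all tested genes called, 23.2% higher and 22.5% lower), exceeded POG in 7 and was lower in 1 (beside 47.9%, 24.2% higher and 23.8% lower), and exceeded DEG in 7 and was lower in 1 (beside 43.4%, 22.3% higher and 21.1% lower). The member that was lower in PC each time was PDGFRB. Against POG, PC was higher by 1.35 ± 0.07 for FGF1, 1.21 ± 0.05 for PDGFA and 1.04 ± 0.03 for FGF2 on the log2 scale, and against DEG by 1.11, 0.89 and 0.94. FGF7 and PDGFRA were higher in PC by 0.79 and 0.55 against DEG and by 0.52 and 0.39 against POG. The median over the 10 genes was 0.25 against RES, 0.51 against POG and 0.59 against DEG. The call of FGF7 as higher in PC than in RES (log2 difference 0.29 ± 0.10, edgeR FDR = 0.0119) was lost without PC replicate 1 (0.0549) or PC replicate 2 (0.0698) and with plain library totals (0.064). FGF18 was not called in these comparisons, except against RES without RES replicate 1 (edgeR FDR = 0.0499) and against POG with plain library totals (0.0331).

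FGFR1 was called in 0 of the 10 comparisons with the edgeR exact test, in 0 at an unadjusted p under 0.05, and in 0 with the quasi-likelihood test and DESeq2. Its 12 libraries lay between 281 and 293 CPM, from 11258 to 14066 reads each. With plain library totals in place of TMM, FGFR1 was called lower in PC than in DEG (log2 difference -0.09, edgeR FDR = 0.0331). The exons of FGFR1 shared 2.25% of their bases with a long noncoding RNA on the opposite strand and 0.802% with LETM2.

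The order of the group means shows which neighbours differ. For FGF1 the order was PC, RES, NC, DEG and POG, with called steps from PC to RES (edgeR FDR = 2.3e-10) and from NC to DEG. For FGF2 it was PC, NC, RES, DEG and POG, with called steps from PC to NC and from RES to DEG. For PDGFA (PC, DEG, RES, NC, POG) and FGF5 (PC, RES, DEG, NC, POG) only the step below PC was called. For PDGFRA (PC, NC, RES, POG, DEG) the step from RES to POG was called (edgeR FDR = 0.000647), and for FGF7, in the same order, no neighbouring pair was.

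FGF2 counts carry a limit of annotation. FGF2 (chr4:122826682-122898236, plus strand, hg38) shares 11.8% of its exon bases with NUDT6, a gene on the opposite strand known as the FGF2 antisense gene, and the strand setting of the counting is not given in the sources used here. NUDT6 was at 7.71 CPM in PC, 9.07 in NC, 8.33 in RES, 7.66 in POG and 8.05 in DEG on average, far below FGF2, and it was not called in the comparisons with NC (edgeR FDR = 0.0959 to 0.552). PDGFRA (chr4:54229280-54298245, plus strand) shares 16.1% of its exon bases with a second protein-coding gene model on the same strand that carries no symbol, so its counts could have been split with that model. PDGFRB lies at chr5:150113839-150155872 and PDGFA at chr7:497258-520296, both on the minus strand, and they had no overlapping gene in GENCODE v44.

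Across the 12 libraries, the genes whose log2 CPM followed FGF2 most closely, of 13036 candidates with a mean of at least 1 CPM, were PLOD2, a collagen lysyl hydroxylase (Pearson r = 0.993), FRMD6 (0.990) and SMOX, spermine oxidase (0.990). FGF1 was followed by the protease PRSS23 (0.993), the interleukin receptor IL7R (0.991) and the transcriptional co-regulator CITED2 (0.991). PDGFRB was followed by the transcription factors GLIS3 (0.994) and NR4A2 (0.992) and by the tetraspanin TSPAN9 (0.984). FGF1 and FGF2 correlated with each other at 0.927. These 12 points fall into 5 groups whose members share a treatment, so the values mainly describe how group means line up.

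The rest of the pathway was read from 5 lists of 115 genes, 90 of which were tested. In PC against NC 23 of the 90 rose and 31 fell, which is 60% called beside 42.4% of all tested genes. In RES 6 rose and 16 fell (24.4%, beside 11.2%), in POG 5 rose and 19 fell (26.7%, beside 14.5%) and in DEG 2 rose and 15 fell (18.9%, beside 9.63%). The medians of the 90 log2 fold changes were -0.07, -0.03, -0.05 and -0.02. The lists were chosen with earlier results of these data known, so these shares only describe the listed genes. The RES count was 13 without NC replicate 1 or without NC replicate 2, and the DEG count was 11 without NC replicate 2, DEG replicate 1 or DEG replicate 2. The POG count was 16 to 20 when 1 library was left out.

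**Figure D4:**
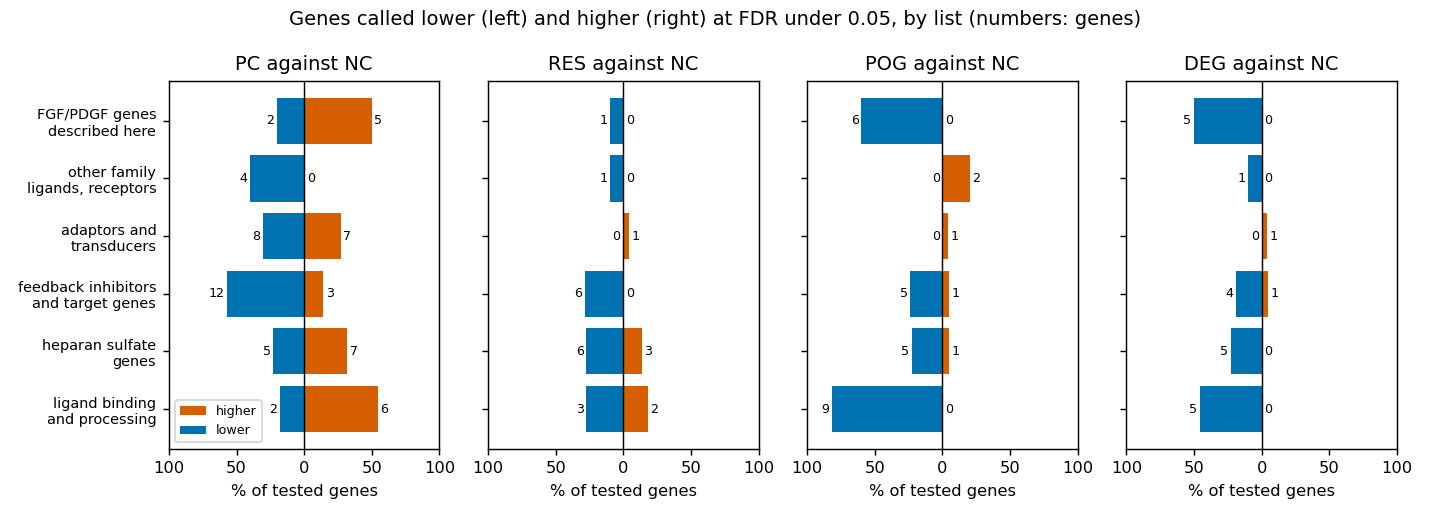
Share of the tested genes of each list (horizontal axis, percent) called lower (left, blue) and higher (right, orange) at an edgeR FDR under 0.05 in PC, RES, POG and DEG against NC, with the number of genes printed at each bar. In POG the 10 genes described here (6 lower) and the ligand binding and processing proteins (9 of 11 lower) show long bars to the left. Of all tested genes 8.57% were called lower in POG.

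Of 26 further FGF and PDGF family ligands and receptors, 10 were tested. With serum 4 of them fell, which is 40% called, beside 42.4% of all tested genes (20.9% lower). Among these were FGFR4, from 26.1 ± 0.604 to 12.5 CPM (log2 fold change -1.06 ± 0.09, edgeR FDR = 2.66e-32), and FGFR3, from 11.1 ± 0.714 to 6.37 CPM (-0.80 ± 0.10, edgeR FDR = 3.77e-14). FGFRL1, a receptor without the kinase domain, fell with RES from 135 ± 6.1 to 107 CPM (-0.34 ± 0.04, edgeR FDR = 7.44e-16) and with serum (-0.35 ± 0.04, edgeR FDR = 1.88e-14). POG raised FGFR3 (0.24 ± 0.08, edgeR FDR = 0.0396) and FGFRL1 (0.12 ± 0.04, edgeR FDR = 0.0207). The FGFR3 call was lost with the quasi-likelihood test (0.0602), DESeq2 (0.089) and no filter on low counts (0.0657), and without NC replicate 1 (0.0682), NC replicate 2 (0.41), POG replicate 1 (0.0894) or POG replicate 3 (0.197), and that of FGFRL1 without NC replicate 2 (0.428), POG replicate 1 (0.054) or POG replicate 3 (0.105). DEG lowered FGFR4 to 19.4 CPM (-0.43 ± 0.09, edgeR FDR = 3e-05). FGFR2 had 5 reads in all libraries together, and the co-receptor gene KLB had none. By reads in all libraries, not scaled for length, FGFR1 (148803) exceeded FGFR4 (11368) and FGFR3 (5586). PDGFB, the B chain that binds PDGFRB, lay between 0.602 and 1.62 CPM, and PDGFD had 2 reads in all.

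Among 26 adaptors and transducers, which pass the signal from receptor to RAS and MAPK, 7 rose and 8 fell with serum. That is 57.7% called, beside 42.4% of all tested genes. The largest changes were HRAS (0.33 ± 0.06), NRAS (0.28 ± 0.04), GAB1 (-0.35 ± 0.07) and SOS2 (-0.30 ± 0.06), with edgeR FDR values from 1.98e-08 to 5.33e-06. With each compound 1 of the 26 was called, which is 3.85%, beside 11.2%, 14.5% and 9.63% of all tested genes with RES, POG and DEG. The called gene was higher each time, where 4.94%, 5.93% and 3.52% of all tested genes were called higher. The called genes were CRK with RES (0.14 ± 0.04, edgeR FDR = 0.0243), MAPK3 with POG (0.14 ± 0.05, edgeR FDR = 0.0332) and PIK3CB with DEG (0.17 ± 0.06, edgeR FDR = 0.0415). All 3 calls were lost when NC replicate 1 was left out (edgeR FDR = 0.448, 0.0998 and 0.148), and they were also lost without other single libraries. CRK (0.17 ± 0.05, edgeR FDR = 0.00214) and PIK3CB (0.15 ± 0.06, edgeR FDR = 0.0231) rose with serum too.

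Of 21 tested feedback inhibitors and target genes of these receptors, 3 rose and 12 fell with serum. That is 71.4% called, beside 42.4% of all tested genes, 21.4% higher and 20.9% lower. FOSL1, an AP-1 subunit, rose from 143 ± 1.43 to 389 CPM (1.45 ± 0.04, edgeR FDR = 2.98e-258) and MYC from 46.6 ± 0.128 to 93.95 CPM (1.01 ± 0.05, edgeR FDR = 2.59e-85). The feedback inhibitor SPRY1 fell from 4.56 ± 1.01 to 1.85 CPM (-1.30 ± 0.18, edgeR FDR = 1.13e-12), and FOS fell by 0.71 on the log2 scale (edgeR FDR = 4.68e-10). So the list moved in both directions in the cells that had serum.

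Within the same list, EGR1 moved opposite to FGF1 and FGF2 in POG and DEG. EGR1, an immediate early transcription factor, rose with POG from 95.8 ± 1.39 to 157 CPM (0.71 ± 0.04, edgeR FDR = 4.23e-64) and with DEG to 128 CPM (0.42 ± 0.04, edgeR FDR = 2.48e-18), while it fell with RES to 81.9 CPM (-0.23 ± 0.04, edgeR FDR = 4.48e-06). DUSP4, a MAPK phosphatase, fell from 42.8 ± 0.016 CPM to 31.7 with POG (-0.43 ± 0.05, edgeR FDR = 7.78e-15) and 31.9 with DEG (-0.42 ± 0.06, edgeR FDR = 3.33e-11). DUSP6, a phosphatase of the ERK kinases, fell with serum (-0.34 ± 0.05, edgeR FDR = 1.7e-10), DEG (-0.25 ± 0.05, edgeR FDR = 3.51e-05) and POG (-0.21 ± 0.04, edgeR FDR = 0.000112). Smaller falls were called for EGR1 with serum (-0.14, edgeR FDR = 0.00708), and with RES for DUSP4 (-0.16, edgeR FDR = 0.0262) and MYC (-0.16, edgeR FDR = 0.014). The list as a whole had 6 lower of 21 with RES, 5 lower and 1 higher with POG, and 4 lower and 1 higher with DEG, with medians of -0.08, -0.11 and -0.06. The shares called were 28.6%, 28.6% and 23.8%, beside 11.2%, 14.5% and 9.63% of all tested genes. FLRT2, which fell with serum (-0.44 ± 0.09, edgeR FDR = 1.35e-05) and RES (-0.34 ± 0.08, edgeR FDR = 0.00123), was called in POG too (-0.30 ± 0.08, edgeR FDR = 0.00507), a call not kept without NC replicate 1 (0.067), NC replicate 2 (0.0778) or POG replicate 2 (0.0737).

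Heparan sulfate is the co-receptor of FGFs, and 22 of its 25 listed core proteins and enzymes were tested. With serum 54.5% of the 22 were called, beside 42.4% of all tested genes (21.4% higher and 20.9% lower). The shares with RES, POG and DEG were 40.9%, 27.3% and 22.7%, beside 11.2%, 14.5% and 9.63% of all tested genes. With POG 1 rose and 5 fell, and with DEG 5 fell. With serum 7 rose, led by the syndecans SDC4 (0.43 ± 0.04) and SDC3 (0.37 ± 0.04), and 5 fell, led by the sulfatase SULF1 (24.6 ± 1.59 to 12.2 CPM, -1.01 ± 0.08) and the heparanase HPSE (33.9 ± 0.0412 to 19.8 CPM, -0.77 ± 0.06), with edgeR FDR values of 5.04e-14 or lower. SULF1 also fell with POG to 15.9 CPM (-0.63 ± 0.07, edgeR FDR = 1.57e-16) and with DEG to 16.5 CPM (-0.58 ± 0.08, edgeR FDR = 9.18e-11). With RES 3 rose, SDC3 (0.29 ± 0.04) and SDC4 (0.24 ± 0.03) among them, and 6 fell, such as the glypican GPC6 (-0.37 ± 0.06, edgeR FDR = 2.24e-08). GPC6 fell by a like amount with POG (-0.37 ± 0.06, edgeR FDR = 2.7e-08), and SDC3 rose with it (0.20 ± 0.04, edgeR FDR = 0.000118). The remaining named calls were weaker, GPC5 with RES (-0.96 ± 0.32, edgeR FDR = 0.0175) and SDC2 with DEG (-0.25 ± 0.07, edgeR FDR = 0.00505), and both were lost without NC replicate 1 (0.172 and 0.119), GPC5 also without NC replicate 2 (0.106), RES replicate 1 (0.0568) or RES replicate 2 (0.115) and with the quasi-likelihood test (0.0505), and SDC2 also without DEG replicate 1 (0.165). SDC2 also fell with POG (-0.24 ± 0.06, edgeR FDR = 0.00197) and rose with serum (0.26 ± 0.06, edgeR FDR = 0.000206), and HPSE fell with RES (-0.25 ± 0.05, edgeR FDR = 0.000325).

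Of 11 tested proteins that bind or process these ligands, 6 rose and 2 fell with serum. That is 72.7% called, beside 42.4% of all tested genes, 21.4% higher and 20.9% lower. PLAT, tissue plasminogen activator, which can cleave latent PDGF-C, rose from 115 ± 8.12 to 259 CPM (1.18 ± 0.04, edgeR FDR = 1.16e-150), and THBS1, thrombospondin 1, which binds FGF2, rose from 191 ± 3.46 to 259 CPM (0.43 ± 0.04, edgeR FDR = 3.9e-21). LRP1, an endocytic receptor that associates with PDGFRB, fell from 1111 ± 36 to 800 CPM (-0.47 ± 0.04, edgeR FDR = 1.53e-20), and FGFBP3 fell as well (-0.80 ± 0.19, edgeR FDR = 0.000133). With POG 9 of the 11 fell, beside 8.57% of all tested genes called lower, and their median was -0.13. THBS1 fell to 99.5 CPM with POG (-0.94 ± 0.04, edgeR FDR = 1.02e-110), to 117 CPM with DEG (-0.71 ± 0.04, edgeR FDR = 3.78e-50) and to 147 CPM with RES (-0.38 ± 0.04, edgeR FDR = 8.19e-18), and ANOS1, which binds FGFR1, fell in the POG libraries (-0.57 ± 0.18, edgeR FDR = 0.0136) but was not called without NC replicate 1 (0.316) or POG replicate 2 (0.0978). NRP1, a co-receptor that binds PDGFs and FGF2, fell with POG (-0.46 ± 0.03, edgeR FDR = 6.49e-35), DEG (-0.43 ± 0.04, edgeR FDR = 5.89e-24) and RES (-0.23 ± 0.03, edgeR FDR = 9.29e-09), and it rose with serum (0.32 ± 0.04, edgeR FDR = 7.39e-15). With RES, PLAT (0.32 ± 0.04, edgeR FDR = 6.97e-12) and its relative PLAU (0.16 ± 0.03, edgeR FDR = 0.000172) rose, the latter not being called without NC replicate 1 (0.0961). PLAU rose with serum (0.24 ± 0.03, edgeR FDR = 3.66e-09) and fell with POG (-0.34 ± 0.03, edgeR FDR = 1.11e-19) and DEG (-0.31 ± 0.03, edgeR FDR = 6.2e-13). With POG, PLAT (-0.11, edgeR FDR = 0.0498) and LRP1 (-0.13, edgeR FDR = 0.0325) were called lower as well.

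Markers of other cells and of division were read in the same libraries, and their part in the results was not tested. The summed level of 5 endothelial markers was 56.5 to 59.7 CPM in PC, 42.3 to 44.1 in NC, 52.8 to 59.5 in RES, 35.2 to 37.3 in POG and 38.1 to 38.6 in DEG. Nearly all of it was TEK. PECAM1 averaged 1.57 CPM in PC, 2.29 in NC and 1.22 in POG, and KDR 1.41, 0.637 and 0.451. CDH5 and EMCN stayed at or below 0.112 CPM. In PC against NC 2 of the 3 tested endothelial markers were called higher and 1 lower, beside 42.4% of all tested genes called. The 5 markers of dividing cells summed to 2020 to 2190 CPM in PC, 2110 in both NC libraries, 1940 to 1990 in RES, 2240 to 2270 in POG and 2210 in both DEG libraries. Most of this was MKI67 and TOP2A, and the sum hides opposite moves. MKI67 averaged 880 CPM in NC and 810 in PC, and CCNB1 157 and 216. In PC against NC 2 of the 5 were called higher and 1 lower, beside 42.4% of all tested genes called. The 10 osteoblast markers summed to 5520 to 5580 CPM in PC, 5300 to 5360 in NC, 4940 to 5070 in RES, 4780 to 4810 in POG and 4790 in both DEG libraries. Nearly all of this was COL1A1, COL1A2 and SPARC. COL1A1 averaged 2844 CPM in NC and 2706, 2534 and 2484 in RES, POG and DEG, and COL1A2 1346 against 1207, 1116 and 1121, while SPARC averaged 1045 against 1022, 1060 and 1105. Adipocyte markers stayed at or below 1.26 CPM in sum, chondrocyte markers at or below 4.08, leukocyte and macrophage markers at or below 3.58 and epithelial markers at or below 5.94.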

How the data were processed

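RNA of hFOB 1.19 cells was selected for polyA tails and sequenced on an Illumina NovaSeq. The authors deposited raw counts of reads on Ensembl genes in a single table, made with FastQC, STAR (BWA MEM is named too), hg38 and featureCounts. Program versions, the annotation used, whether counting used strand, and how reads with several matches were handled are not given in the sources used here. The table held 12 library columns for 13 labelled samples, and DEG replicate 3 was not analysed here. Depth was 38464619 to 51416358 counted reads per library.

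Genes were filtered with filterByExpr by group (17092 genes, 99.967% of reads kept), scaled by TMM and tested with the exact test of edgeR 4.0.16 (R 4.3.3), with dispersions from all 12 libraries and Benjamini-Hochberg adjustment over all tested genes. Genes were called at an FDR under 0.05. Standard errors and 95% intervals came from the quasi-likelihood fit. CPM and RPKM were computed from the deposited counts, with exon lengths and coordinates from GENCODE 44. The test was checked on simulated counts.

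All 10 genes are named. From each pathway list, the named genes were up to 2 largest rises and 2 largest falls among called genes with at least 1 CPM in either group. NUDT6, FGFR2, KLB, PDGFB and PDGFD and the correlations between members were added after their values were seen. So were the other comparisons against NC in which a named pathway gene was called. The nearest genes were taken for the 3 members called most often; PDGFRB and PDGFC tied at 7 comparisons, and the one with the higher mean CPM was taken. The members and lists were chosen with earlier results of these data known. Alternatives were the quasi-likelihood test, DESeq2 1.42.0, its size factors or plain totals in the exact test, other filters, dispersions from the groups compared, an FDR of 0.01 and leaving out each library.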

Additional observations from a re-analysis of the deposited data

How the results depend on the processing

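No paired analysis was possible because the labels give no replicate numbers; those used here follow the order of the samples and only name libraries. The number of members called for DEG against POG was 2 and became 1 with the quasi-likelihood test, DESeq2, plain library totals, no filter on low counts or an FDR of 0.01, and 4 with dispersions from these 2 groups alone. Leaving out 1 library gave 0 to 2 (0 without DEG replicate 1). The pathway counts ranged from 13 to 19 for RES (main count 22), from 16 to 20 for POG (main count 24) and from 11 to 12 for DEG (main count 17) when 1 library was left out. Calls over all tested genes fell too, in RES against NC from 1906 to 881 without NC replicate 1. Plain library totals changed the share of called genes that were higher from 50.6% to 41% in PC, 44.3% to 64% in RES, 40.9% to 55.9% in POG and 36.6% to 49.3% in DEG, all against NC, and from 50.8% to 34.8%, 50.4% to 36.7% and 51.3% to 37.7% in PC against RES, POG and DEG; the median of all genes moved by less than 0.1. The changes of sign concerned differences that were not called. They were FGFR1 in PC against POG (0.000571 with DESeq2, 0.00061 with its size factors, 0.0024 with a mean of at least 1 CPM), and, with plain library totals, FGF7 (-0.0039) and PDGFRA (-0.0218) in PC against NC, FGFR1 in DEG against NC (0.0095) and FGFR1 in PC against RES (-0.0632). With 1 library left out, the differences that changed sign ranged from -0.0061 to 0.0079 for FGFR1 in PC against POG, -0.0013 to 0.0195 in POG against RES and -0.0021 to 0.0186 in PC against RES, from -0.0516 to 0.109 for PDGFRA in PC against NC, from -0.0561 to 0.0026 for FGF2 and -0.0149 to 0.0445 for PDGFC in RES against NC, from -0.0717 to 0.129 for FGF5 in DEG against NC and -0.166 to 0.0344 in DEG against RES, and for FGF18 from -0.0362 to 0.409 in POG against RES, -0.0886 to 0.356 in DEG against RES and -0.172 to 0.0715 in DEG against POG. The cause of these shifts was not tested. Depth limits FGF18, which had 14 to 34 reads per library, and groups of 2 or 3 libraries limit every interval, which covers the spread between these libraries only.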
